A study of Mus musculus with 12 samples.

Results

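Transcripts that peaked or dipped on the day of birth were picked out of the RNA sequencing of mouse male germ cells. A peak is a gene whose 3 libraries from the day of birth (P0) all lay at least 2-fold above each of the 9 libraries from the other stages, and a dip is a gene whose 3 P0 libraries all lay at least 2-fold below each of them. The mean of the highest stage had to reach 100 normalized counts, a unit made by dividing a gene's reads by the size factor of its library. Of 55487 genes in the table, 15037 reached that level, and 756 of them (5.03%) were peaks and 622 (4.14%) were dips. Because these values chose the genes, the P0 levels of peaks and dips are given as a description and were not tested.

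The cells were gonocytes, isolated from mice that carry an Mvh-Venus transgene, in which a fluorescent protein marks germ cells. There were 4 stages with 3 libraries each: E13.5 and E16.5 in the embryo, P0, and postnatal day 3 (P3). Titles call all 12 samples wild type, whereas the genotype tag reads Morc1 (+/-) at E13.5 and P0 and Morc1 (-/-) at E16.5 and P3, so a difference between P0 and E16.5 or P3 cannot be told apart from a difference of genotype if the tag holds. Morc1, a germline ATPase gene, was at 28328 to 32916 normalized counts in the 3 E16.5 libraries and at 1621 to 1830.3 at E13.5. Of these, E16.5, which like P3 is tagged (-/-), was thus the higher. Morc1 was at 7279.9 to 7708 at P0 and was not called higher or lower there than at each other stage. The tag goes with whole stages, so these levels do not settle the genotype. The labels do not say whether the 3 libraries of a stage came from separate animals, so p-values below measure the spread between these libraries, which may be technical. Libraries are named by the number 1, 3 or 4 in the table's column heads.

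Gonocytes divide in the early fetal testis, stop dividing before birth and stay arrested in the cell cycle, and resume division in the first days after birth as they become spermatogonia. NANOS2 and NANOS3 are RNA-binding proteins of the germ line: NANOS3 keeps early germ cells alive and NANOS2 promotes the male fate of fetal germ cells. The testis around them holds Sertoli cells, which nurse the germ cells, Leydig cells, which make steroid hormones, and the contractile cells and stroma around the cords.

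The scaling of the libraries bears on all counts that involve P0. Reads assigned to genes were similar over the libraries (40946616 to 51533747), but the deposited size factor was 1.94 ± 0.118 at P0 (SD, n = 3) against stage means of 0.939 to 1.13 elsewhere. P0 libraries also spread their reads over more genes, with 19089 protein-coding genes holding a read on average against 15474 at E13.5, 18155 at E16.5 and 16897 at P3. With median-of-ratios factors in place of those of the file, 1237 genes were peaks and 254 were dips, and with equal library totals 2190 were peaks and 77 were dips. TMM factors gave 951 and 435, and poscounts factors, a variant of the median of ratios that keeps genes with zeros, gave 719 and 674. Of the 756 peaks, 719 met the rule under all 5 scalings, as did 77 of the 622 dips. P0 factors were 0.918 times those of the file with TMM, 0.815 with median of ratios, 0.629 with equal totals and 1.01 with poscounts. All but poscounts thus raised P0, and the 719 are the peaks under poscounts factors. Holding under all 5 scalings is therefore a weak check for peaks and higher calls, and a stricter one for dips. All 622 dips met the rule with poscounts factors, 435 with TMM and 254 with median of ratios, and the 77 are those that held with equal totals. A dip outside those 77 thus depends on the scaling. The genes named for their ratio or level below all belong to the 719 or the 77.

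**Figure D1:**
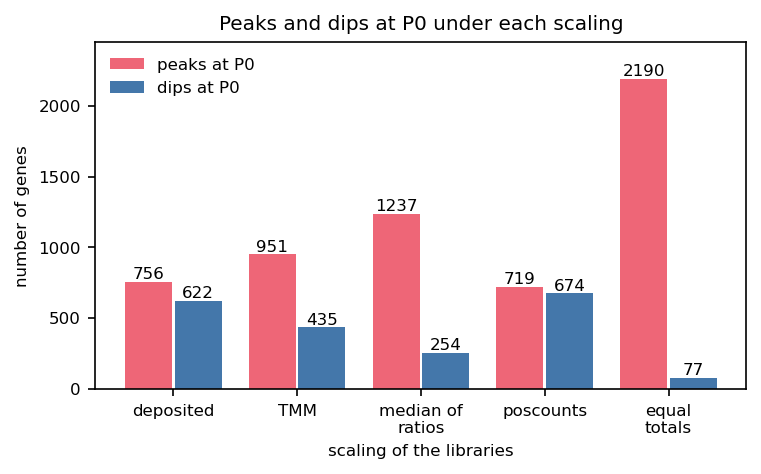
Number of genes (vertical axis) that peaked (red) or dipped (blue) at P0 by the 2-fold rule under the deposited size factors and 4 other scalings of the libraries (horizontal axis). Peaks ran from 719 to 2190 and dips from 674 down to 77.

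Peaks and dips differed in level. The median peak had 278.8 normalized counts at P0, 61.9 at E16.5, 33.6 at P3 and 7.79 at E13.5. The median dip had 914 at P0 and 4792 at E13.5, with 2963 at E16.5 and 3668 at P3. Dips were thus mostly abundant transcripts at every stage, and peaks were mostly low transcripts that came into view at P0. The rule fixed part of this contrast, since a peak had to be lower at the other stages than at P0 and a dip higher. It is given as a description. The median fold between the P0 mean and the nearest stage mean was 3.85 for peaks and 2.83 for dips. The nearest libraries, rather than the means, lay over 10-fold apart in 23 peaks and in 1 dip, Nanos3. In 207 peaks (27.4%) no E13.5 library held more than 3 reads, a level taken here as the floor, against 3.48% of all genes at the required level of expression. In 111 of these peaks every E13.5 library was at 0. A gene near the floor at E13.5 can reach the required level through P0 alone, which favours peaks. The 27.4% is therefore a description, and the 3.48% is no fair match for it.

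The other stages had an order among themselves, given here as a description because the rule used those libraries too. E16.5 was the highest of the other stages for 564 of the 756 peaks (74.6%), P3 for 160 (21.2%) and E13.5 for 32 (4.23%). For all genes at the same level the shares were 33.0%, 27.4% and 39.6%. E16.5 was the lowest of the other stages for 367 of the 622 dips (59.0%), P3 for 201 (32.3%) and E13.5 for 54 (8.68%). For all genes at the same level these shares were 39.5%, 23.8% and 36.7%. The 3 genes just inside the rule for peaks were Elovl7, Rgcc and Esyt1, with 2.00-fold between the nearest libraries, and those just outside were Syt2, Klf14 and Prrx1, which also round to 2.00-fold. For dips they were Rpa1, Slc35f2 and Cox7b inside and Ing5, Psmc3 and Tars2 outside, again at 2.00-fold.

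Promoters are shown first for genes that moved together: spindle genes among the dips and mast cell protease genes among the peaks. The sequences are RefSeq's on GRCm38.p6, 5′ to 3′ along the gene, and cover the 250 bases before the annotated start. In the dips, capitals mark matches on either strand to CCAAT, a box of many cell cycle promoters, or to TTTGAA, the core of the cell cycle homology region, which was chosen after values were seen. In the peaks, capitals mark matches to the TATA box, searched as TATAAA on either strand. None of these motifs contains another.
Cdc20, chr4:118437344-118437593, - strand: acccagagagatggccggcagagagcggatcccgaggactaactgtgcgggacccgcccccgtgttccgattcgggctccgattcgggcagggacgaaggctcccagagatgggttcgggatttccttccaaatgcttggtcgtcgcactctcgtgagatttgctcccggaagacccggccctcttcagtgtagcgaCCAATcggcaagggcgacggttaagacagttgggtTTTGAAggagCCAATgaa
Cenpf, chr1:189688087-189688336, - strand: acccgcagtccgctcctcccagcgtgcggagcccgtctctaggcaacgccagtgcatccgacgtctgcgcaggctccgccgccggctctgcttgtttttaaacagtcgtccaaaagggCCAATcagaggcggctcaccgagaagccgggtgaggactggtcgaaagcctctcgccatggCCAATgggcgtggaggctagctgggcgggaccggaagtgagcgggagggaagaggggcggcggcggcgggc
Aurka, chr2:172370571-172370820, - strand: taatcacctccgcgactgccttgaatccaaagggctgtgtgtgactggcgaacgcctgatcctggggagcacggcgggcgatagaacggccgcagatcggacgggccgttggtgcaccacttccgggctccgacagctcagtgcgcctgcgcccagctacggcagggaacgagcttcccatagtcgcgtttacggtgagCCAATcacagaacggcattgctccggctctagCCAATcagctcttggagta
Bub1, chr2:127831860-127832109, - strand: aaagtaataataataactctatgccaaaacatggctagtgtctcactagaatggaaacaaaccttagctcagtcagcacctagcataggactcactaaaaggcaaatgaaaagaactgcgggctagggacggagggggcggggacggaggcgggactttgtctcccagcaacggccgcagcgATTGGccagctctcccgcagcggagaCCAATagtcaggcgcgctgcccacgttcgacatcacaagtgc
Cpa3, chr3:20242182-20242431, - strand: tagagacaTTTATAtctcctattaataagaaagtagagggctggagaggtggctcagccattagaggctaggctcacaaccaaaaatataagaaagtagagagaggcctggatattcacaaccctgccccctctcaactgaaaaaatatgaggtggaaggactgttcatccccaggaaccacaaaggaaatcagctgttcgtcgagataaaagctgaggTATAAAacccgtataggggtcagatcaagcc
Mcpt4, chr14:56062311-56062560, - strand: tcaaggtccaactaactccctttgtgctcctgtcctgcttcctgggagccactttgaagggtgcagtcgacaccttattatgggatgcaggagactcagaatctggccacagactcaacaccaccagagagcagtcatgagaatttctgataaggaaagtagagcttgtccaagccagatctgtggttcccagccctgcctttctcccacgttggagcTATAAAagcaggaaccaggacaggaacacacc
In Cdc20, CCAAT began 53 and 8 bases before the start, with TTTGAA between them at 18 bases. Cenpf held CCAAT at 132 and 71 bases, Aurka at 51 and 19, and Bub1 held it at 42 bases and its reverse complement ATTGG at 68. TATAAA began 31 bases before the start of Cpa3 and 32 bases before that of Mcpt4, and Cpa3 held its reverse complement at 242 bases. These genes were picked because they hold matches. Only 557 of 756 peaks (73.7%) and 468 of 622 dips (75.2%) had a promoter in the table, under the 80% needed, so a check of motifs over the whole sets is void. Among those with an entry, in the 300 bases that run to 50 after the start, TATAAA was in 15.8% of peaks and 6.84% of dips, against 9.11% of genes at the same level and 13.6% of all windows in the table. CCAAT was in 34.5% of peaks and 50.2% of dips, against 42.9% and 37.4%. TTTGAA was in 17.2% of peaks and 18.4% of dips, against 14.4% and 17.9%. Of the 77 dips under all scalings 58 had an entry. Among these 58, TATAAA was in 12.1%, CCAAT in 46.6% and TTTGAA in 31.0%. A match is a description of letters and not a site.

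The deepest dip was Nanos3, of the RNA-binding proteins of the germ line, by the ratio of the nearest libraries. Nanos3 (ENSMUSG00000056155, chr8:84173731-84185217 in GRCm38) had 38.1, 20.1 and 43.9 normalized counts in P0 libraries 1, 3 and 4. It had 2097, 1996 and 2144 at E13.5, 1388, 1252 and 1463 at E16.5, and 1087, 1097 and 950.5 at P3. Every P0 library was thus far below every other library, and the lowest other library was 21.6-fold above the highest P0 library. Nanos2 (chr7:18987400-18988962) had 6.79, 10.3 and 13.51 at P0, against 635, 681 and 649 at E13.5, 428, 596 and 630.0 at E16.5, and 113, 123 and 88.1 at P3. Its return at P3 stopped short of the fetal level, while Nanos3 came back to the same order of magnitude. Dnd1, a partner of NANOS2, dipped from 63749 to 74414 over the E16.5 libraries to 3545 to 4313 at P0 and reached 9040.0 to 9874 at P3. It met the rule under the deposited factors but not under all scalings. Lin28a, which blocks let-7 microRNA maturation and was picked out after its values were seen, had 179.6, 226 and 171 at P0 and 930.4 to 1719 elsewhere.

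Most other germ cell markers were not called. Of 12 listed markers, 4 were lower at P0 than at each other stage (Nanos2, Nanos3, Dnd1 and Ddx4) and 0 were higher, where limma called 19.5% of all 22384 genes tested lower and 12.5% higher. That call takes the largest of the 3 one-sided p-values of P0 against E13.5, E16.5 and P3, adjusted over all genes and both directions, and these 3 comparisons share the P0 libraries. Ddx4, the gene also called Mvh, had 24320.1, 23070.2 and 22150.5 at P0 and 44916 to 62737 in the other libraries, with an adjusted p of 5.43e-09 for being lower than each. The 4 calls held under all 5 scalings, and the count was 4 without any 1 library. With the deposited factors the whole list summed to 166544 to 177735 at P0 and 260439 to 350113 elsewhere, without overlap. Its median log2 difference of P0 was -1.03 from E13.5, -1.08 from E16.5 and -0.67 from P3. Over all genes the medians were 0.20, -0.01 and -0.05. In a bulk sample, fewer cells of a type and less RNA per cell cannot be told apart. Dazl, an RNA-binding protein gene of germ cells, went another way: its mean was 59234 at P0, above 35953 at E16.5 and below 139041 at E13.5 and 128882 at P3.

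**Figure D2:**
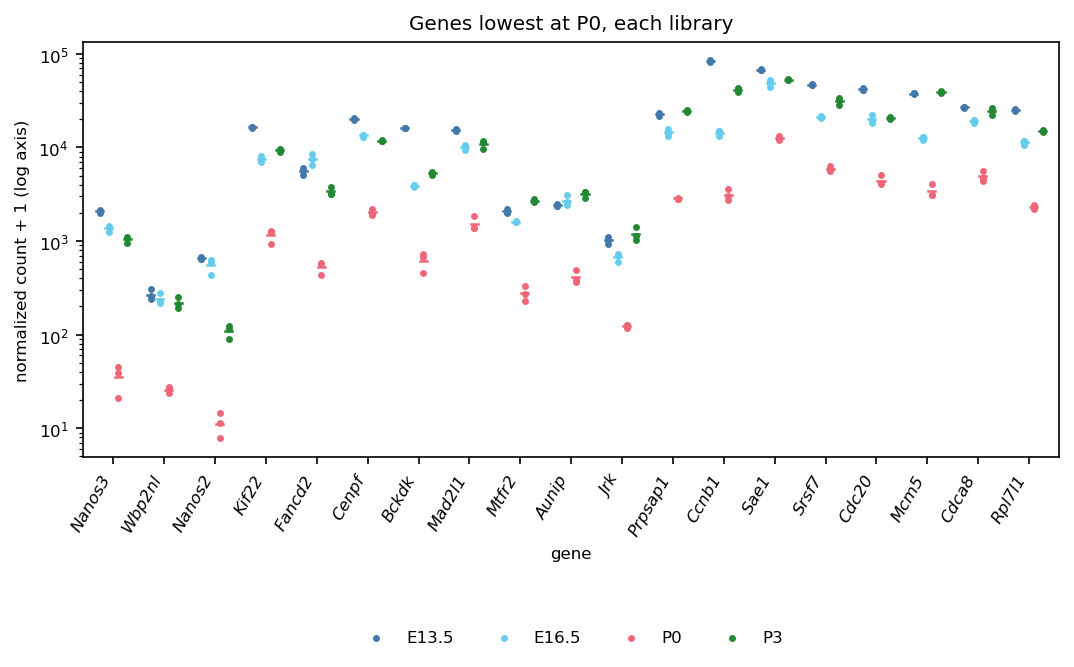
Normalized count plus 1 on a log axis (vertical) for the genes named for the largest ratio or the highest level among dips (horizontal), with 1 point per library, a bar at the stage mean and colours for the 4 stages. In each gene the 3 P0 points lie below the 9 others, from 6.79 to 13.51 in Nanos2 up to 11924 to 13247 in Sae1.

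Genes of mitosis were prominent among the other named dips. Ccnb1, the cyclin that drives entry into mitosis, had 3618, 3049 and 2719 normalized counts at P0, against 84999, 84557 and 81325 at E13.5, 14883, 15063 and 13209 at E16.5, and 42846, 42221 and 39135 at P3. Its P0 mean was 4.60-fold below that of E16.5, the nearest stage. Cdc20, an activator of the anaphase ubiquitin ligase, had 5044, 4204 and 4031 at P0 and 18376 to 43184 elsewhere. Mad2l1, a spindle checkpoint protein that binds CDC20, had 1861, 1387 and 1363 at P0 and 9500.0 to 15718 elsewhere. Cenpf, a kinetochore protein, had 2206, 1955 and 1917 at P0 and 11599 to 20386 elsewhere. For these 4 genes P0 library 1 was the highest of the 3, yet all 3 stayed below every other library.

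Further spindle dips were Kif22, a chromosome-arm kinesin, at 925 to 1267 at P0 and 7069 to 16643 elsewhere, and Cdca8, a subunit of the chromosomal passenger complex, at 4393 to 5630.2 and 18408 to 27301. Aunip, a partner of Aurora A kinase, had 363 to 487 at P0 and 2381 to 3361 elsewhere. A group of 24 spindle and mitotic exit genes was drawn from the dips after their values were seen. Its median was 1287 at P0, 4423 at E16.5, 9926 at P3 and 16465 at E13.5, and 15 of the 24 met the rule under all 5 scalings. By symbol, 7 of 20 centromere protein genes with a stage mean of at least 100 dipped, as did 7 of 36 kinesins, against 4.14% of all genes at that level, and both families were chosen after values were seen. Among the kinesins these were Kif15, Kif18b, Kif20a, Kif20b, Kif22, Kif24 and Kif2c.

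Replication and repair genes were also among the dips. Mcm5, a subunit of the replicative helicase, had 4056, 3132 and 3118 normalized counts at P0, against 36839 to 38265 at E13.5, 12042 to 12797 at E16.5 and 37869.8 to 40420.4 at P3. Fancd2, the central protein of the Fanconi anaemia crosslink repair pathway, had 569, 586 and 437 at P0, 5120.3 to 6059 at E13.5, 6459 to 8459 at E16.5 and 3202 to 3797 at P3. Fancd2 differed from Mcm5 in that its highest stage was E16.5 and its lowest other stage was P3. In 19 replication and repair genes gathered after values were seen, 9 met the rule under all 5 scalings, among them Lig1, Mcm10, Rnaseh2a, Bard1 and Mutyh.

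The listed cell cycle genes were lower at P0 as a group. Of 20 tested, 16 were called lower than at each other stage and 0 higher, against 19.5% and 12.5% of all genes, and the median log2 difference of P0 was -3.55 from E13.5, -0.99 from E16.5 and -3.14 from P3, where the medians over all genes were 0.20, -0.01 and -0.05. The count was 16 without any 1 library, 13 with median-of-ratios factors and 11 with equal totals. Of these genes 6 met the dip rule, namely Top2a, Ccnb1, Ccnb2, Aurka, Bub1 and Mcm5. The other members ranged from Ccna2 (log2 difference from the nearest stage -1.24) and Plk1 (-1.18) to Cdk1 (-0.48) and Tyms (-0.39). Mki67, a marker of cycling cells, did not pass, with 228, 192 and 190.2 at P0 and 128, 219 and 139 at E16.5. Pcna, the replication clamp, had 3994, 3767 and 3419 at P0 and 3958 to 4029 at E16.5, and the means of the cyclin E genes Ccne1 and Ccne2 were 468 and 675 at P0 and 306 and 466 at E16.5. The P0 mean of Ccne2 was also below its means of 1366 at E13.5 and 1686 at P3.

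The list of quiescence and FOXO target genes, which holds cell cycle inhibitors, had few calls. Of its 19 genes, 1 was higher than at each other stage and 1 lower (5.26% each). Over all genes tested, 12.5% were higher and 19.5% lower, so both shares of the list were smaller. The inhibitor genes Cdkn1b and Cdkn2b, also on the list, were not called. Cdkn1c, which encodes the inhibitor p57, had 5790.5, 6074 and 6429 at P0, 3238 to 3498 at E13.5, 1674 to 1977 at E16.5 and 1259 to 1498 at P3. Its log2 difference from E13.5, the nearest stage, was 0.86 (limma adjusted p 5.71e-07 for higher than each). Cdkn1c was called under all 5 scalings, a weak check for a higher call. Cdkn1a, which encodes p21, was lower than at each other stage by 0.59 from E16.5, a call lost with equal totals.

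Dips outside the cell cycle included housekeeping genes. Prpsap1, which binds the enzyme that starts nucleotide synthesis, had 2898, 2846 and 2813 normalized counts at P0 and 13397 to 25084 elsewhere. Sae1, a subunit of the SUMO-activating enzyme, had 11924 to 13247 at P0 and 43916 to 68846 elsewhere. Srsf7, a splicing factor, had 5551 to 6293 at P0 and 20725 to 47514 elsewhere, and Rpl7l1, a relative of a ribosomal protein, 2192 to 2402 against 10706 to 25656. Bckdk, the kinase that restrains branched-chain amino acid breakdown, had 453 to 721 at P0 and 3763 to 16294 elsewhere. Lower down the scale, Wbp2nl, a sperm protein gene, had 22.7 to 26.6 at P0 and 192 to 304 elsewhere. Mtfr2, a regulator of mitochondrial fission, had 229.7 to 326 against 1609.8 to 2803, and Jrk had 116 to 127 against 597 to 1395.

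Other groups were gathered from the dips after values were seen. Of 11 splicing factor and hnRNP genes, 2 met the rule under all 5 scalings, and of 8 chaperone genes 0 did. Hspa8, the constitutive HSP70 chaperone had 28668, 23056 and 23420.4 at P0, against 154233 to 165731 at E16.5 and 81123 to 84886 at P3. Rest, a repressor of neuronal genes outside neurons, had 1717, 1437 and 1488 at P0, against 17294 to 18537 at E13.5, 5626 to 5987 at E16.5 and 14983 to 16595 at P3. It belonged to the 77 dips that met the rule under all 5 scalings. By symbol, 10 of 76 mitochondrial ribosomal protein genes and 5 of 80 cytosolic ones dipped, against 4.14% of all genes at that level, and 1 and 0 of them did so under all scalings. The share of cytosolic ones, 6.25%, was close to that of all genes. Pseudogenes made up 7.88% of dips, against 4.20% of genes at the same level, and reads of pseudogenes can stem from their parent genes. Chromosome 7 held 14 of the 77 dips (18.2%), with 7.64% of genes at the same level, a share noticed after the values were seen.

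The peaks opened with genes almost silent at the other stages. Amy1, a digestive amylase gene (ENSMUSG00000074264, chr3:113555710-113606699), had 745, 761 and 790.1 normalized counts at P0, against 0 to 1.06 at E13.5, 2.86 to 7.91 at E16.5 and 5.06 to 8.84 at P3. The lowest P0 library was 75.8-fold above the highest other library after adding 1 to each, the largest such ratio among the named peaks. Amylase genes are near-identical copies, and how shared reads were counted is not given in the sources used here, so the level of Amy1 is uncertain. Cplx3, a complexin of ribbon synapses, had 856, 934 and 956 at P0, 18.2 to 39.1 at E16.5, 9.69 to 28.3 at P3 and 0 to 2.11 at E13.5. Tbx5, a T-box factor of heart and forelimb, had 472, 403 and 416 at P0, 9.5 to 27.7 at E16.5 and at most 4.85 in the other libraries. Dach1, a nuclear cofactor of eye and limb development, had 394, 498 and 392 at P0 and at most 22.9 elsewhere.

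Several low-level peaks had P0 libraries that barely differed. Trim42 had 119.6, 119.5 and 117 normalized counts at P0 and at most 7.44 elsewhere, and Glra2, a glycine receptor subunit, had 137, 146 and 142 and at most 3.17 elsewhere. Lipo1, a lipase family gene, had 121, 132 and 122 against at most 3.17, and the odorant receptor gene Olfr629 had 124, 153 and 145 against at most 4.75. Ppfia2, a scaffold of the presynaptic zone, had 124 to 151 against at most 7.44. Sptssb, a subunit of the enzyme that starts sphingolipid synthesis, varied more, with 174, 112 and 119.7 at P0 and at most 8.1 elsewhere. Over all peaks the highest P0 library was a median of 1.17 times the lowest, the same as for all genes at that level. The spread exceeded 1.5 times in 49 of 756 peaks and in 1277 of the 15037 genes at that level.

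**Figure D3:**
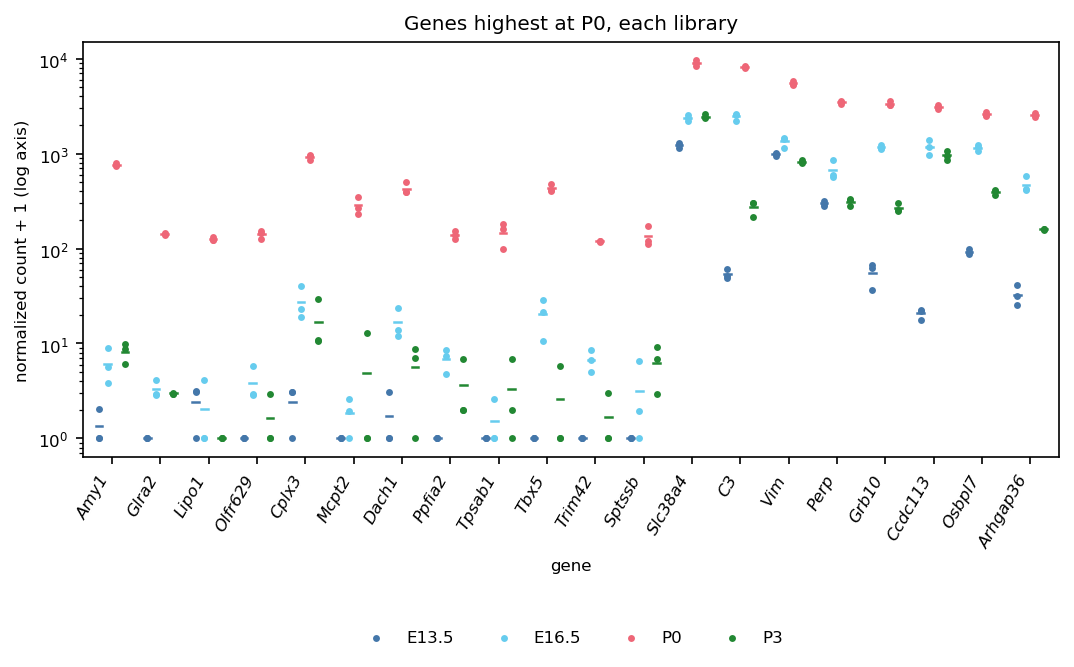
Normalized count plus 1 on a log axis (vertical) for the genes named for the largest ratio or the highest level among peaks (horizontal), with 1 point per library, a bar at the stage mean and colours for the 4 stages. The 3 P0 points lie above the 9 others in every gene, from 98.9 to 180.4 in Tpsab1 up to 8445 to 9582 in Slc38a4.

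The most abundant peaks were already expressed before birth. Slc38a4, an amino acid transporter, had 8445, 9582 and 9024 normalized counts at P0, 1137 to 1304 at E13.5, 2192 to 2557 at E16.5 and 2369.7 to 2590.2 at P3. C3, the central complement protein, had 7927 to 8306 at P0, 2205 to 2601 at E16.5, 212 to 304 at P3 and 48.4 to 60.2 at E13.5. Vim, the intermediate filament vimentin, had 5343 to 5875 at P0 and 804 to 1448 elsewhere, and Perp, a membrane protein of desmosomes and p53 responses, had 3293 to 3598 against 278 to 861. Grb10, an adaptor of insulin signalling, had 3221 to 3569.6 at P0 and 1114 to 1237 at E16.5, with 35.8 to 302 at E13.5 and P3. Ccdc113, a cilium protein gene, Osbpl7, of the oxysterol-binding family, and Arhgap36 had P0 means of 3098, 2604 and 2558 and folds over their highest other stage of 2.64, 2.27 and 5.43. Slc38a4 and Grb10 are imprinted, and with Plagl1, Rian and Nap1l5 they made 5 imprinted peaks, a group drawn after values were seen.

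Neuronal genes were the listed group with the most genes higher at P0. Of 16 neuronal and synaptic genes, 11 were higher at P0 than at each other stage and 0 lower, against 12.5% and 19.5% of all genes tested, and the median log2 difference of P0 was 4.58 from E13.5, 1.57 from E16.5 and 2.14 from P3. The 11 calls held under all 5 scalings, a weak check for higher calls, and 10 or 11 passed when each library was left out. Gria1 and Grin1, glutamate receptor subunits, and Nlgn1, a synaptic adhesion gene, met the peak rule. Gria1 had 177, 111 and 109 normalized counts at P0, 24.8 to 35.3 at E16.5, 7.86 to 18.2 at P3 and at most 2.18 at E13.5. Grin1 had 98.2, 95.6 and 112 at P0 and at most 30.4 elsewhere, and Nlgn1 had 164, 128 and 94.6 and at most 23.2. The summed level of the list was 8018 to 8226 over the P0 libraries and at most 7211 in any other library, so the sums did not overlap, and the P0 sums differed by 1.03 times.

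Receptors and channels beyond the list were counted by family, among genes with a stage mean of at least 100. Genes low at the other stages reach that level only through P0, which favours peaks and leaves out dips. Shares of families of such genes are therefore descriptions and are no fair match for the share of all genes. Of 28 genes for glutamate, GABA and glycine receptors with a stage mean of at least 100, 12 (42.9%) were peaks and 0 were dips, beside 5.03% of all genes at that level, a family chosen after values were seen. Grm2, a presynaptic glutamate receptor, had 617, 564 and 604 at P0 and 13.2 to 55.3 elsewhere. Tph2, the enzyme of serotonin synthesis in neurons, had 439.6, 438 and 379 and at most 38 elsewhere. Of 49 potassium channel genes 13 were peaks and 0 were dips, of which 11 were peaks under all scalings. A group of 25 genes of neurotransmission and neuropeptides, drawn from the peaks after values were seen, had medians of 452.5 at P0, 64.5 at E16.5, 27.9 at P3 and 9.84 at E13.5.

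Developmental transcription factors of several organs were peaks too, and the limit on family shares given above holds for them. Of 45 homeodomain genes outside the Hox clusters, a family chosen after values were seen, 11 were peaks and 0 were dips, where 5.03% of all genes at that level were peaks and 4.14% were dips. Emx2, of the forebrain and the urogenital tract, had 238, 229 and 214 at P0 and at most 19 elsewhere, and Pou3f2, a neural factor, had 154, 150.0 and 169 and at most 13.7. Nkx2-1, of lung, thyroid and forebrain, had 105, 141 and 78.2 and at most 10.2. Peaks were 4 of 10 T-box genes (Tbx1, Tbx18, Tbx2 and Tbx5), 6 of 26 Fox genes, 3 of 16 Sox genes and 2 of 11 Hox genes. Of 295 Zfp genes 3 (1.02%) were peaks and 11 (3.73%) were dips, against the same 5.03% and 4.14%.

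Genes of muscle, liver, gut, pigment and skin appeared among the peaks, in groups drawn after values were seen. Among skeletal myosin genes, Myh2 had 1914, 1746 and 1732 at P0, 321 to 469 at E16.5, 129 to 155 at P3 and 0 in all E13.5 libraries, and Myh1 had 1061 to 1256, 211 to 305, 28.5 to 45.5 and 0. Of 14 myosin heavy chain genes 4 peaked, Myh1, Myh2, Myh3 and Myh8, which are similar copies in a cluster. Among 16 genes of liver, gut and pancreas, Apob, of lipoprotein particles, had 343, 345 and 351 at P0 and at most 64.9 elsewhere. Dct, a pigment cell enzyme, had 604, 572 and 547 and at most 55.3 elsewhere. Peaks were 8 of 29 keratin genes and 6 of 35 collagen genes, as were 6 of 13 carbonic anhydrase genes, against 5.03% of all genes at that level. The limit on family shares given above holds here as well. In these groups the P0 libraries stayed close, with a median of highest to lowest library of 1.11 for the liver, gut and pancreas genes and 1.16 for the muscle genes.

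Mast cell protease genes varied between the P0 libraries by 1.54 (Mcpt2) to 3.45 times (Mcpt4) from lowest to highest, where the median peak varied by 1.17. On the mast cell list 6 genes met the peak rule, Cpa3, Mcpt2, Mcpt4, Cma1, Tpsab1 and Tpsb2, all of them enzymes of mast cell granules. Tpsb2, a tryptase, had 1296, 939 and 655 at P0, 9.3 to 15.8 at E16.5 and 0 at E13.5, and at P3 it had 129 in library 3 and 0 in the others. Cpa3, a carboxypeptidase, had 627, 439 and 188 at P0 and 82.5 in P3 library 3, with at most 8.71 elsewhere, and Mcpt2 had 352, 269.5 and 228 at P0 and at most 11.8 elsewhere. The 6 genes summed to 3208, 2428 and 1505 at P0, 322 in P3 library 3, and 0 to 38.8 in the other libraries. Their separation from the other stages was fixed by the rule that chose them. The whole mast cell list summed to 4197 to 6167 at P0 and 3689 to 8547 elsewhere, so it overlapped. Several of the 6 are close relatives, so reads could be shared. Of 11 tested genes on the mast cell list, 8 were higher than at each other stage and 1, Kit, was lower, against 12.5% and 19.5% of all genes. Those 8 include the 6 peaks, which the rule picked from the same libraries, so this count is a description. Kit is also a germ cell gene. The subunits of the mast cell IgE receptor were low: Ms4a2 had 27.2, 24.5 and 15 at P0, and Fcer1a had 2.09, 2.17 and 0.

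Markers of somatic testis cells moved with the stage and, within P0, with the library. Of 9 Sertoli markers tested 7 were higher at P0 than at each other stage and 0 lower, although none met the 2-fold rule. Over all genes tested, 12.5% were higher and 19.5% lower, shares that stand beside each marker count here. Inha, the inhibin alpha subunit, had 15802, 15122 and 8256 at P0 and 477 to 4668 elsewhere, and Sox9, a Sertoli fate factor, had 1988, 1987 and 1278 against 333 to 1016. The Sertoli list summed to 45548, 39742 and 22913 at P0 and to 5312 to 20380.3 elsewhere, without overlap. The count of 7 became 4 without E16.5 library 1 and 5 without P0 library 1, 8 without P0 library 4, and 9 of 9 with median-of-ratios factors, under which 19.4% of all genes were higher. Of 7 Leydig markers, 2 were higher than at each other stage, and the sums of 7796, 4375 and 1760 at P0 overlapped E16.5, where library 4 reached 8424. That Leydig count became 5 without E16.5 library 4 and 1 without P0 library 1 or E16.5 library 1.

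Of 10 peritubular and stromal markers, 5 were higher at P0 than at each other stage, and Acta2, Actg2 and Col3a1 were peaks. Actg2, a smooth muscle actin, had 1272, 1140.1 and 1036 at P0 and at most 359.7 elsewhere. The sums of this list were 6704 to 7146 at P0 and at most 3456 elsewhere, so they did not overlap, and they hardly differed between P0 libraries. The sums of endothelial markers were 1353 to 1624 at P0 and up to 5715 at E13.5, whereas the median endothelial marker was higher at P0 by 2.24 on the log2 scale from E13.5, 1.19 from E16.5 and 0.93 from P3, with 2 of 7 higher and 0 of 7 without E16.5 library 4 or P0 library 1. Macrophage sums were 359 to 749 at P0 and up to 1274 elsewhere, with 1 of 9 higher. That macrophage count was 0 without any 1 P0 or P3 library or E16.5 library 3, and 2 without E13.5 library 3. Of 6 erythroid markers 0 were higher or lower than at each other stage (1 was higher without E13.5 library 1 or E16.5 library 4), and of 9 markers of ducts and skin 3 were higher and 1 lower.

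The part of somatic or mast cell RNA in the peaks was not tested. The sum over the P0 libraries varied by 2.13 times for the 6 mast cell proteases that met the rule, 1.99 for the Sertoli list and 4.43 for the Leydig list. These sums were always highest in library 1 and lowest in library 4. The sum varied by 1.47 for the whole mast cell list and by 1.07 for the stromal list. Peaks as a whole varied by a median of 1.17, and P0 library 4 was the lowest of the 3 for 292 of 756 peaks, library 3 for 273 and library 1 for 191. Among the 49 peaks with a spread over 1.5, library 4 was the lowest for 26. All 6 mast cell proteases were among those 49. Among dips, library 4 was the lowest of the 3 P0 libraries for 335 of 622. The lowest library was not counted over all genes, so these counts have no share to stand beside.

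**Figure D4:**
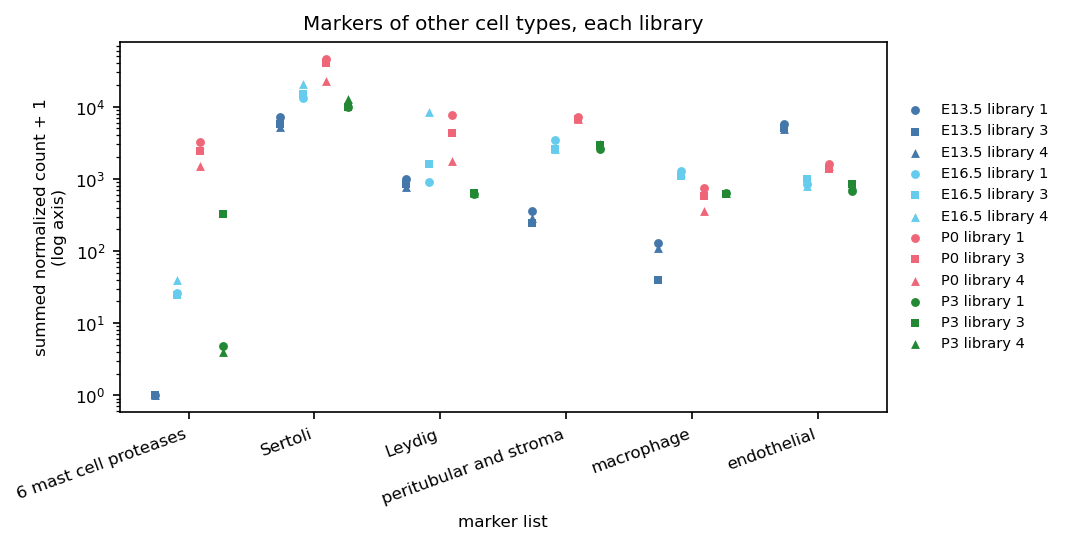
Summed normalized count plus 1 on a log axis (vertical) of marker lists of other cell types (horizontal), with 1 point per library, colours for stages and shapes for library numbers. The mast cell protease, Sertoli and Leydig sums of P0 are highest in library 1 and lowest in library 4, while the stromal sums of the P0 libraries lie together between 6704 and 7146.

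Stress and metabolic lists were mixed at P0, and their counts stand beside 12.5% of all genes higher and 19.5% lower. Of 12 heat shock genes, 6 were lower than at each other stage and 1, the small chaperone gene Hspb1, was higher, but only 1 was lower with equal totals (Hspa8) and 5 with median-of-ratios factors. Of 15 hypoxia genes 3 were higher and 3 lower, shares near those of all genes. Ankrd37 and Car9, targets of hypoxia-inducible factor, were peaks: Ankrd37 had 1434, 1219 and 1286 at P0 and 366 to 594 elsewhere, and Car9 had 128, 91.8 and 108 against 6.53 to 34.4. Ldha, which makes lactate, was higher by 0.87 on the log2 scale from E16.5, its nearest stage (limma adjusted p 2.01e-07), whereas Slc2a1, the glucose transporter, was lower by a difference of -1.07 (6.43e-08). Of 16 autophagy and lysosome genes 6 were lower and 0 higher, with Atg7, of the autophagy conjugation system, at 493 to 614 at P0 and 1592 to 1988 elsewhere. Atg7 was a dip, as were Prdx1, an antioxidant enzyme gene, and Hsp90b1, a chaperone of the endoplasmic reticulum. The autophagy count was 4 lower and 4 higher with equal totals.

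The counts of the remaining lists were small, and most lay near or below the 12.5% and 19.5% of all genes. Of 14 unfolded protein and integrated stress response genes 2 were higher and 4 lower, and of 11 NRF2 antioxidant genes 0 and 3. Immediate early genes gave 2 higher (Fosb and Klf4) and 1 lower (Jund) of 19, and glucocorticoid targets 1 and 1 of 10. Cholesterol synthesis genes gave 0 and 1 of 14. Of 20 adhesion and migration genes 4 were higher and 3 lower, among them Esam (higher by 1.49 from the nearest stage) and Kit (lower, -1.13). Of 16 transposon silencing and methylation genes 0 were higher and 4 lower, Asz1, Mov10l1, Pld6 and Ddx4, of which only Ddx4 was lower under all 5 scalings. Of 14 meiotic and spermatid genes 2 were higher and 1 lower. In these lists, leaving out 1 library could move the small counts by more than 1.5 times: immediate early genes higher ran from 1 (without P0 library 1 or 3) to 4 (without P0 library 4), and adhesion genes higher dropped to 2 (without P0 library 1 or 3).

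**Figure D5:**
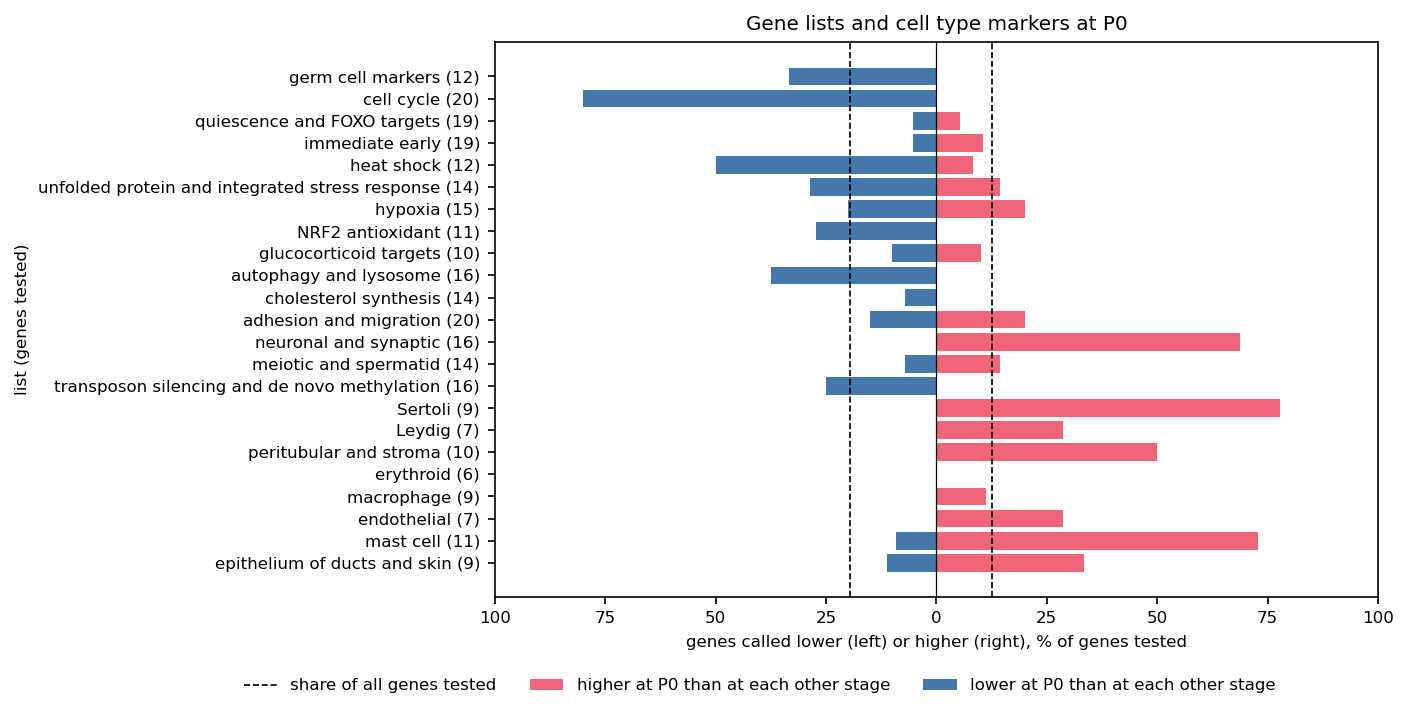
Share of the genes tested in each list and marker set (vertical axis, number tested in brackets) called by limma higher (red, right) or lower (blue, left) at P0 than at each other stage, in % (horizontal axis). Dashed lines mark the shares of all genes tested, 12.5% higher and 19.5% lower, and the longest bars are those of Sertoli, mast cell and neuronal genes on the right and of cell cycle genes, at 80%, on the left.

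Set against single stages, P0 differed for most genes. Against E13.5, limma called 45.7% of the 22384 genes higher and 40.5% lower at P0. Against E16.5 the shares were 27.6% and 33.4%, and against P3 they were 36.4% and 40.1%. The 2805 genes higher and 4374 lower than at each other stage became 3377 and 4446 with edgeR's quasi-likelihood test on the recovered reads. The peaks spanned longer stretches of the genome than other genes, with a median from first to last exon of 36567 bases, against 13535 for dips and 23382 for all genes at the same level. Exon lengths were closer, at medians of 4334 and 3624 bases against 4168. Protein-coding genes made up 96.2% of peaks and 90.8% of dips, against 91.6% of all genes at the same level.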

How the data were processed

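Per the labels' protocols, a column kit for few cells gave the RNA, and libraries came from SMART-seq v4 Ultra Low and TruSeq mRNA reagents. The submitters' processing notes name bcl2fastq 2.20, cutadapt 1.18, HISAT2 2.1.0, featureCounts 1.5.2, DESeq2 1.26.0 and the build mm10/GRCm38. The deposited signal is a read count per gene divided by 1 RLE size factor per library. In every library 100% of the values were whole multiples of 1 step (tolerance 0.001), so reads and factors were recovered.

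Column numbers 1, 3 and 4 do not match the replicate numbers of the titles, so columns were assigned to stages only. All 12 columns were used. Symbols came from a gene name table (99.5% of identifiers) and positions from GENCODE M21 on GRCm38.

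limma 3.58.1 (R 4.3.3) was run on log2(normalized count + 1) for 22384 genes with at least 10 in at least 3 libraries, with Benjamini-Hochberg adjusted p under 0.05 and 8 residual degrees of freedom. The method was tested on simulated data. Alternatives were other scalings, pseudocounts and filters, each library left out, a block on the column number, edgeR 4.0.16 and DESeq2 1.42.0. Python 3.11.15, numpy 2.4.6, pandas 2.3.3 and matplotlib 3.10.9 did the rest.

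Members and lists were chosen with earlier results of these data known. Named genes were, among members under all 5 scalings and without predicted or clone names, the 12 with the largest ratio between the nearest P0 and other library (values plus 1) and the 8 with the highest level; list members that met the rule; up to 4 examples a list; Morc1; and genes at the limit of the rule. Some genes that the rule names are not reported here. Others are said to be chosen after values were seen. Counting intervals are not given, since amplified reads without molecular identifiers are not independent.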

Additional observations from a re-analysis of the deposited data

How the results depend on the processing

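Under median-of-ratios factors and under equal totals, the genes higher at P0 than at each other stage numbered 4410 and 7406, against 2805, and those lower 2645 and 1053, against 4374. A pseudocount of 0.1 gave 1796 higher, no filter 4275, and a mean of at least 100 gave 1135 higher, 11968 genes changed against E13.5 and 11249 against P3; the last setting tests fewer genes. Median-of-ratios factors gave 1237 peaks and 254 dips; equal totals gave 2190 and 77. Peaks and dips numbered 1248 and 1708 at 1.5-fold, and 172 and 30 at 4-fold. With a highest stage mean of at least 500 there were 212 peaks. The other alternatives stayed within 1.5 times, DESeq2 included, at 3142 higher and 4530 lower. Leaving out each library gave 759 to 863 peaks, 623 to 815 dips, 2186 to 2940 genes higher and 4035 to 4409 lower than at each other stage, and 18831 to 19331, 12377 to 13839 and 16299 to 17249 changed against E13.5, E16.5 and P3. List counts without each library were added after seeing the data. Of the values of named genes under the scalings and left-out P0 libraries, 161 moved by less than 1 SD and 112 by more, none to the other side. The cause of these shifts was not tested. The column heads carry other numbers than the titles' replicates, and nothing says that they pair libraries. Deviations from the stage means correlated by -0.0356 to 0.0423 over 18 same-numbered pairs, and 2 of 12 libraries correlated best with their own number. A replicate block by column number, added after seeing the data, gave 2746 higher and 4358 lower, and 19268, 13529 and 17028 changed against E13.5, E16.5 and P3.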
